A study of Mus musculus with 9 samples.

Results

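The genes described here were chosen by name, from families that include many splicing factors, and are called splicing factor genes below. They are the GENCODE M21 protein-coding genes whose names begin with Srsf, Srrm, Luc7l, Rsrc, Rbm and a digit, Sf3a, Sf3b, Prpf, U2af, Snrnp, Snrp or Hnrnp, together with Pnisr and Son. This rule gave 125 of 21951 protein-coding genes, in 11 subfamilies, and 12 further genes with such names that are not protein-coding were left out. A SAFB peak was counted for a gene when its midpoint lay within the gene on the transcribed strand. Peaks were called exonic or intronic by their midpoint. Distances to exons also run from the midpoint, so a peak called intronic can overlap an exon. The list of the series has 15997 plus-strand and 15001 minus-strand peaks, of which 18929 fell in protein-coding genes and 89 in the 125 splicing factor genes. A peak in overlapping genes counts once for each of them, so values for all protein-coding genes rest on 19691 placements.

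The peaks come from RNA immunoprecipitation and sequencing (RIP-seq) of SAFB1 in mouse embryonic stem cells of a male CAST/B6 line with a cassette-exchange site at Rosa26, all under doxycycline for 3 days. With SAFB1 antibody there were 3 wild-type libraries (the parent line and 2 clones) and 2 libraries of clones without Safb and Safb2. With FLAG antibody there was 1 library of a double-knockout clone carrying a SAFB1 plasmid and 1 of the same clone with an eGFP plasmid, and 2 IgG libraries came from wild-type cells. The genotype label of the library with the SAFB1 plasmid reads wild type, and its title, which names a double-knockout clone, was followed. The authors deposited 1 list of peak positions for the 9 libraries, with peak names that begin with wt_saf and no reads or signal per library, so antibodies and genotypes could not be compared, the depth behind a peak is unknown, and no value below has replicates. Of 10 markers of embryonic stem cells, 3 held a peak (Zfp42, Esrrb and Tfcp2l1) and the others, Pou5f1, Sox2 and Nanog among them, held none, which is no measure of their RNA level.

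Introns are removed from nascent RNA by the spliceosome, which is built on the RNA from small nuclear ribonucleoproteins (snRNPs) with the help of many other proteins. SR proteins and their relatives carry stretches rich in arginine and serine and mostly favour the use of exons, while hnRNPs often oppose it. Genes of splicing factors are themselves often spliced into alternative forms that hold premature stop codons or keep an intron. SAFB proteins bind RNA in the nucleus and are known to prefer purine-rich RNA such as repeats of GAA.

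Examples of the RNA under exonic peaks of these genes are printed here. The stretches below are the coding part of 1 exon under a peak, at most 240 bases, from the GENCODE M21 transcripts and written 5' to 3' on the transcribed strand. The first 4 come from 4 of the genes with most exonic peaks (the shorter gene first where numbers were equal). From each gene the stretch of at least 100 bases with most A and G was taken, a choice made after these shares were seen, so the purines of these 4 are shown as examples only. Capitals mark the hexamer AGAAGA or its shifted forms, GAAGAA on the one side and AAGAAG on the other, and matches that overlap were joined.
Rbm25, exon 11 of 19, chr12:83668092-83668308 (mm10, plus strand), 83.4% A and G: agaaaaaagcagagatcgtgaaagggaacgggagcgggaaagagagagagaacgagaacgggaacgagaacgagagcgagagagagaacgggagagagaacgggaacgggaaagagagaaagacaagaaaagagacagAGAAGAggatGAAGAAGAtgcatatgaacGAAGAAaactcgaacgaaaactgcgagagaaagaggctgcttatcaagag
Prpf38b, exon 6 of 6, chr3:108904223-108904462 (minus strand), 80% A and G: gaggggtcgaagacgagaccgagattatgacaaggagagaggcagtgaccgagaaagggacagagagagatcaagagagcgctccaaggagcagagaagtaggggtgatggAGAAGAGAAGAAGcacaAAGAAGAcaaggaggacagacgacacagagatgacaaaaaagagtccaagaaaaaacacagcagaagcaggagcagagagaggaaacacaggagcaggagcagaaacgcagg
Luc7l3, exon 8 of 12, chr11:94296907-94297146 (minus strand), 77.9% A and G: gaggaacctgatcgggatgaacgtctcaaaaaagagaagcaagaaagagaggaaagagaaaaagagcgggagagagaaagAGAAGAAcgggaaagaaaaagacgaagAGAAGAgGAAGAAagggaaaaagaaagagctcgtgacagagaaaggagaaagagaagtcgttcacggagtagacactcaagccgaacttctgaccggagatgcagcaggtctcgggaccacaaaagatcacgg
Pnisr, exon 11 of 11, chr4:21874009-21874248 (plus strand), 68.3% A and G: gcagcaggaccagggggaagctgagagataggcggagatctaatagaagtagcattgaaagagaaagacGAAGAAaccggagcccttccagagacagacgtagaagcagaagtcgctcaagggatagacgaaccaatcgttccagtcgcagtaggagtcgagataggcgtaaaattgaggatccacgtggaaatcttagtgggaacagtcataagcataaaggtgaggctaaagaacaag
For contrast, the Pnisr stretch with least A and G, exon 5 of 12, chr4:21860821-21860991 (plus strand), 48.5% A and G: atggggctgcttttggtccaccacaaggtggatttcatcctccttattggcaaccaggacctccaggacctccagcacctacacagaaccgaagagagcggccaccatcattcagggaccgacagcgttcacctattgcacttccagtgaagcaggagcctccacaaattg
The stretches of Rbm25, Prpf38b and Luc7l3 hold 5, 6 and 4 matches. The upper Pnisr stretch has 1 match and the lower none.

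Splicing factor genes held peaks about as often as other genes of their length. At least 1 peak was found in 35 of the 125 genes (28.0%, 95% Wilson interval 20.9 to 36.4), against 26.2% of all protein-coding genes. The share of all protein-coding genes in the same 5 length classes would give 29.8 of 125. Of the 35 genes, 20 held exactly 1 peak and 15 at least 2 (12.0% of members, against 13.8% of all protein-coding genes). Peaks numbered 24.0 per Mb of gene body (exact Poisson interval 19.3 to 29.5), against 18.3 per Mb in all protein-coding genes. Among peaks at least as wide as the list's median of 596 bases, the density was 9.16 per Mb in the splicing factor genes and 9.92 per Mb in all. RNA levels were not used here, so a gene with no peak and a gene with little RNA cannot be told apart. Intervals cover counting error and treat peaks and genes as independent.

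In 9 of the 11 subfamilies the number of genes with a peak was above that at the rate of all protein-coding genes of like length, by less than 1 gene in 6 of these. Pnisr and Son, the SR-related gene and the gene of a scaffold of nuclear speckles, both held peaks (0.637 at that rate), as did 2 of the 3 Luc7l genes, which encode partners of the U1 snRNP (1.27). The Prpf genes, which encode parts of the U4/U6.U5 and related particles, had 5 of 13 (38.5%, Wilson interval 17.7 to 64.5), against 3.46 at the rate of all genes of their lengths. The Rbm genes, a mixed group named for an RNA-binding motif and not for splicing, had 13 of 39 (33.3%, 20.6 to 49.0), against 10.5. The Srrm genes had 2 of 4 (1.95 at that rate) and the Rsrc genes 1 of 2 (0.899). The snRNP proteins had 4 of 19 (21.1%, 8.51 to 43.3), against 3.20, and the U2 snRNP subunits of Sf3a and Sf3b 2 of 9 (22.2%, 6.32 to 54.7), against 1.88. The Srsf genes had 2 of 11 (18.2%, 5.14 to 47.7), against 1.43. These were Srsf10 and Srsf11, while Srsf1, Srsf2, Srsf3, Srsf4, Srsf5, Srsf6, Srsf7, Srsf9 and Srsf12 held no peak.

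The genes of hnRNPs and of U2AF were the 2 subfamilies below the rate of genes of their lengths. Of 20 Hnrnp genes 2 held a peak (10.0%, 2.79 to 30.1), against 4.10 at the rate of genes of their lengths. Of the 3 U2af genes, whose proteins read the 3' splice site, none did (interval up to 56.1%), against 0.487. At that rate a count of 0 lies below and any other count above. Hnrnpu, Hnrnpk, Hnrnpc, Hnrnpm, Hnrnpa1 and Hnrnpa2b1 were among the 18 Hnrnp genes without a peak, and Hnrnpr, at 48.5 kb, was the longest of them. The longest genes without a peak in other subfamilies were Rbm47 (157 kb), Sf3b1 (42.3 kb), Srrm2 (34.2 kb), Luc7l (32.6 kb), Snrnp200 (32.1 kb), Prpf18 (30.1 kb), Srsf4 (28.1 kb), Rsrc2 (20.99 kb) and U2af2 (17.8 kb). With peaks under the median width left out, 20.0% of all protein-coding genes held a peak, and no rate for genes of like length was taken. The Hnrnp genes then kept 2 of 20, while the Luc7l genes had 0 of 3 and the snRNP genes 1 of 19. The intervals of all subfamilies with 9 or more genes overlap, and their differences were not tested.

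**Figure D1:**
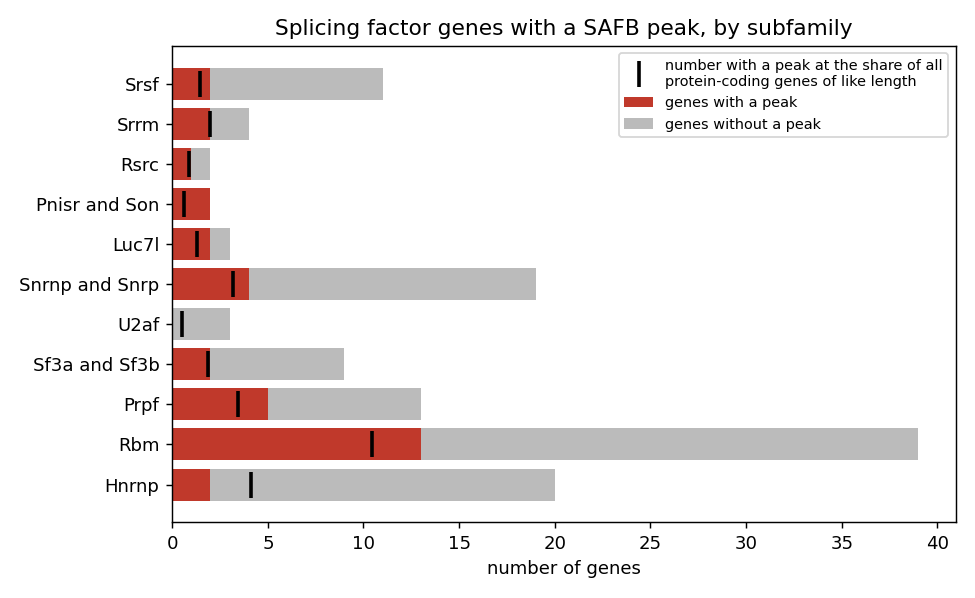
Number of splicing factor genes with a SAFB peak (red) and without one (grey) in each of 11 subfamilies, with a black mark where the share of all protein-coding genes of the same length classes would put the red bar. The red bar passes the mark in 9 subfamilies, by most for Rbm (13 against 10.5) and Prpf (5 against 3.46), and falls short of it for Hnrnp (2 against 4.10) and U2af (0 against 0.487).

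Per Mb of gene, Pnisr and Son together held 115 peaks, the Luc7l genes 40.05, the Srrm genes 31.3, the Prpf genes 28.7, the Rsrc genes 25.1, the Rbm genes 24.5, the snRNP genes 19.6, the Srsf genes 14.6, the Sf3a and Sf3b genes 12.0 and the Hnrnp genes 5.6. All genes stood at 18.3, so 7 of the 11 subfamilies lay above. Several of these densities rest on 1 gene. Without the gene with most peaks in each, Pnisr and Son, Prpf and Rbm remained above 18.3, at 31.5, 20.5 and 20.3, and the Srrm, Luc7l, snRNP and Rsrc genes stood at 7.41, 11.02, 13.02 and 0. With peaks under the median width left out, the Luc7l genes had 0 per Mb, the snRNP genes 4.90 and the Hnrnp genes 5.6, against 9.92 in all.

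Peaks of splicing factor genes lay in exons more often than those of other genes. Midpoints in exons made up 36 of 89 peaks (40.4%, Wilson interval 30.9 to 50.8), against 14.6% in all protein-coding genes (2883 of 19691, 14.2 to 15.1). At the exon shares of all protein-coding genes of like length, 22.3% would be exonic, and at the exon content of the genes' own length 19.2%. Per Mb of exon the splicing factor genes held 49.2 peaks, against 29.6 in all protein-coding genes. Per Mb of intron the numbers were close, at 17.8 and 17.2. The exon share varied with gene length. Genes of 30 to 100 kb had 18 of 28 peaks in exons (64.3%, against 19.6% in all genes of that length), those of 10 to 30 kb 12 of 20 (60.0%, against 38.1%) and those under 10 kb 5 of 6 (83.3%, against 70.5%). Genes of 100 to 300 kb had 1 of 25 (4.00%, against 8.44%). A peak on the opposite strand overlapped 22.2% of the exonic peaks (8 of 36), against 8.57% in all protein-coding genes, and without all peaks overlapped in this way the exon share was 35.9%. No test of these differences was made, because peaks are not replicates.

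**Figure D2:**
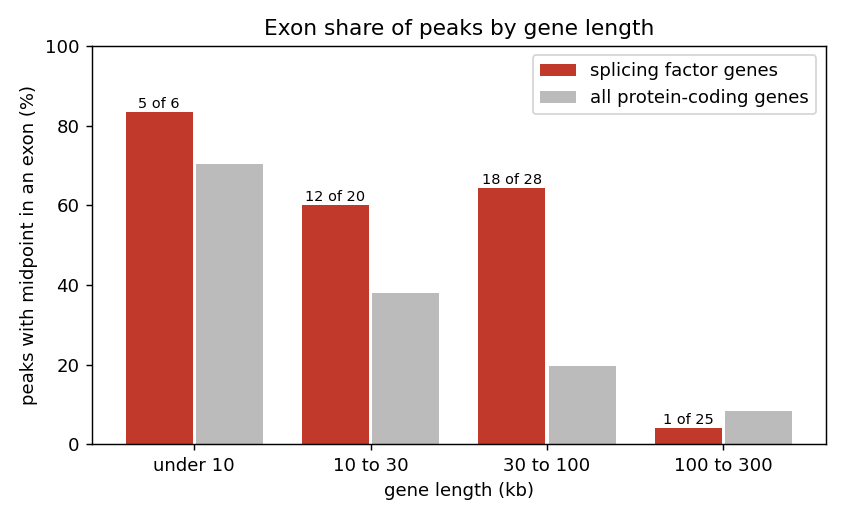
Share of same-strand peaks with midpoint in an exon (%), for splicing factor genes (red, with counts) and all protein-coding genes (grey), in 4 classes of gene length in kb. The widest gap is at 30 to 100 kb, 64.3% against 19.6%; the single gene above 300 kb, Rsrc1 with 10 intronic peaks, is not drawn.

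At least 1 exonic peak was found in 21 of the 125 genes (16.8%, against 9.72% of all protein-coding genes). At least 2 exonic peaks were found in 8 (6.40%, against 2.21%) and at least 4 in 3 (2.40%, against 0.287%, or 63 genes). The 35 genes fell into those with exonic peaks alone (15), intronic peaks alone (14) and both (6). By subfamily the exon share was 6 of 7 peaks for Pnisr and Son (85.7%, against 35.4% in all protein-coding genes of like length) and 4 of 5 for Luc7l (80%, against 19.6%). It was 7 of 10 for Prpf (70.0%, interval 39.7 to 89.2, against 31.6%) and 14 of 34 for Rbm (41.2%, 26.4 to 57.8, against 18.4%). The snRNP genes had 2 of 8 (25.0%, against 38.4%). The subfamilies with 2 peaks each had 2 in exons for Hnrnp (54.3% in all genes of like length), 1 for Srsf (38.1%) and 0 for Sf3a and Sf3b (38.1%). With 0 of 9, Srrm lay near the 9.68% of genes of like length, and Rsrc, with 0 of 10, near 3.69%.

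**Figure D3:**
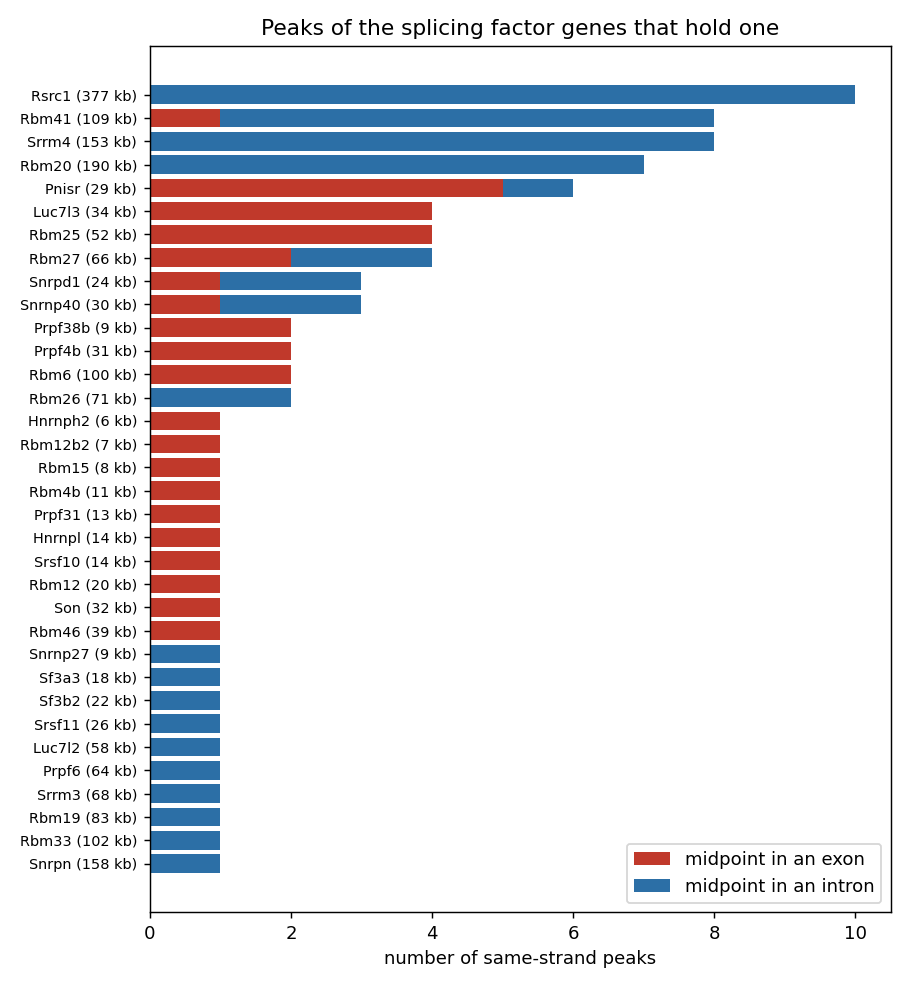
Number of same-strand peaks of each of 34 splicing factor genes with a peak, with midpoint in an exon (red) or in an intron (blue); gene length in kb stands beside each name. The 4 genes with most peaks, all above 100 kb, have 1 exonic peak among 33, while most genes with 2 to 6 peaks are mainly red.

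Pnisr, which encodes an arginine- and serine-rich nuclear protein, had most exonic peaks. The gene (ENSMUSG00000028248.15, chromosome 4, plus strand, 28.9 kb) held 6 peaks, 5 of them in coding sequence, and 23 protein-coding genes of the whole list had as many exonic peaks or more, Pnisr included. Its exonic peaks lay on exons 4, 5, 6, 10 and 11, the last at chr4:21873567-21874676. At 0.208 peaks per kb it ranked 107 among the 3030 protein-coding genes with at least 2 peaks. Son, whose protein holds nuclear speckles together, had 1 short peak of 112 bases in exon 4.

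Luc7l3, which encodes a partner of the U1 snRNP that carries an arginine-rich tail, held 4 peaks in 34.1 kb (chromosome 11, minus strand). They covered exons 7, 8 and 9 of 12 and part of the 3' untranslated end of exon 12. Its relative Luc7l2 had 1 intronic peak 0.819 kb from an exon, and Luc7l none. Rbm25, a regulator of splice site choice with a domain of alternating arginine and glutamate, held 4 peaks in 51.9 kb (chromosome 12, plus strand), and all 4 were in coding sequence. They covered exons 11 and 12 with 1 peak, then 13, 14 and 15 of 19 with 1 peak each.

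The Prpf genes repeated this placement. Prpf38b, a factor with an arginine- and serine-rich tail, held 2 coding peaks on exons 5 and 6 of 6, and at 0.224 peaks per kb it was the densest splicing factor gene with at least 2 peaks, at rank 92 of 3030. Prpf4b, the kinase of the family, held 2 coding peaks on exons 2 and 3 of 15. Prpf31 had 1 peak of 1729 bases over its last exon, and Prpf6 1 intronic peak.

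**Figure D4:**
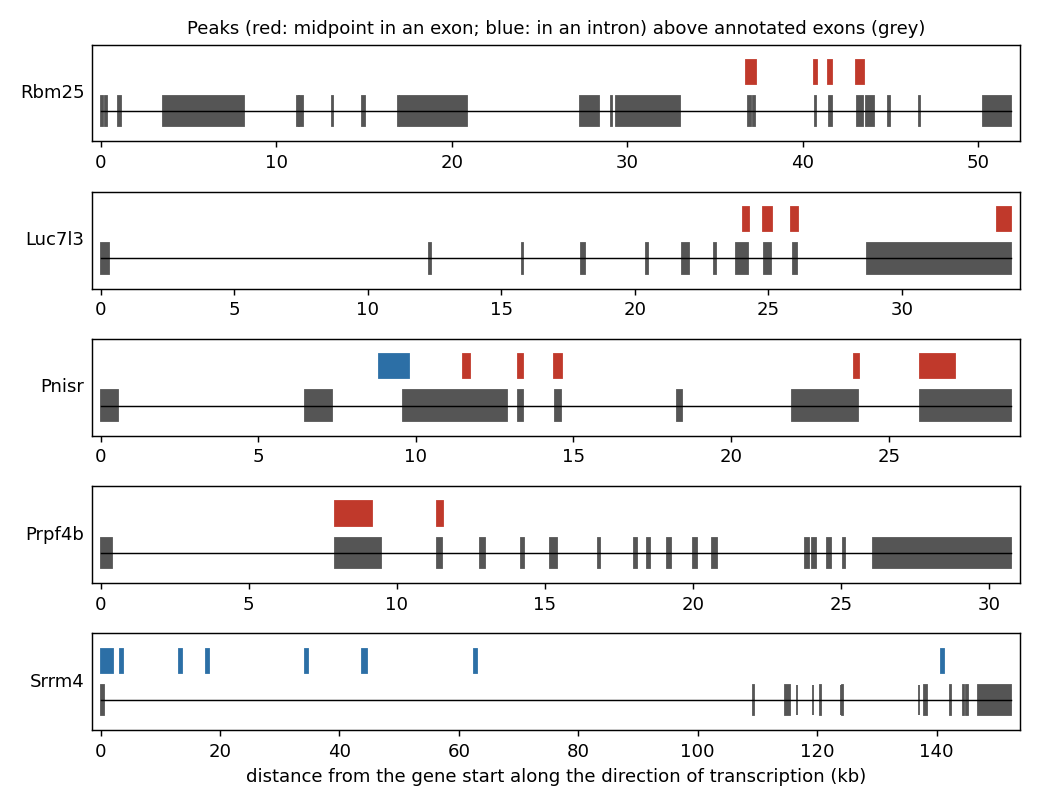
Position of peaks (red, midpoint in an exon; blue, in an intron) above the exons of all annotated transcripts (grey) in 5 splicing factor genes, by distance from the gene start in kb along the direction of transcription. In Rbm25, Luc7l3 and Prpf4b the coding peaks sit over runs of neighbouring exons (11 to 15, 7 to 9, 2 and 3), while the 8 peaks of Srrm4 have their midpoints in introns.

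Coding peaks on neighbouring exons were common among these genes. Of the 8 with at least 2 exonic peaks, 6 (Rbm25, Luc7l3, Pnisr, Prpf38b and Prpf4b among them) had them on adjacent exons of 1 transcript (75.0%, interval 40.9 to 92.9), against 124 of 393 protein-coding genes with at least 2 exonic peaks in 1 transcript (31.6%, 27.2 to 36.3). Rbm6 (exons 3 and 18 of 21) and Rbm27 (5 and 20 of 21), both genes of RNA-recognition motif proteins, were the exceptions. These shares are not a like comparison. Peaks sharing 1 exon counted as not adjacent, a layout that none of these 8 genes had. At least 4 exonic peaks, which give more chances of adjacent exons, were held by 3 of the 8, against 63 of all 485 genes with at least 2. Most exonic peaks in internal exons took in the whole exon and ended a short way into the introns. Of 25 exonic peaks in internal exons, 19 held the entire exon (76.0%, interval 56.6 to 88.5), against 53.0% in all protein-coding genes (571 of 1077). In those 19 the peak reached a median of 39 bases past the 5' end of the exon and 40 bases past its 3' end, and the exon had a median of 174 bases. The medians in all protein-coding genes were close, at 43, 45 and 164 bases. Luc7l3 shows this in exon 8, of 284 bases, where the peak passed the ends by 39 and 41 bases. In Rbm25 exon 15, of 325 bases, it passed them by 51 and 40 bases. The widest reach was in Snrnp40, 1088 and 1127 bases around an exon of 77 bases.

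The exonic peaks were mostly coding. Of 36, coding sequence held 29 (80.6%, interval 65.0 to 90.2), 3' untranslated regions 4 (11.1%, 4.41 to 25.3) and 5' untranslated regions none. In all protein-coding genes the shares were 53.2%, 24.0% and 4.27%. The remaining 3 peaks lay in exons of isoforms without a coding sequence. They were those of Hnrnpl (retained intron, chr7:28815092-28817661), Rbm4b (retained intron, 74 bases wide) and Snrnp40. No peak midpoint lay in an exon that only transcripts annotated for nonsense-mediated decay use (interval up to 9.64%). In all protein-coding genes this class holds 2.32% of exonic peaks, a share within that interval. Exonic peaks were narrower here, with a median of 328 bases, than in all protein-coding genes (771), while intronic peaks had 523 against 647.

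Purines were more frequent under most exonic peaks than in the rest of the same transcripts. In 30 of 36 exonic peaks (83.3%, interval 68.1 to 92.1) the share of A and G was higher under the peak than outside all peaks of the transcript, against 70.5% of 2871 exonic peaks in all protein-coding genes. The median share was 58.7% under the peaks and 51.5% outside, and the median difference was 7.86 percentage points, against 2.78 in all protein-coding genes. It was widest for Rbm25, with 83.1% under its peak on exons 11 and 12 against 53.5% outside, and for Luc7l3 exon 8, with 78.9% against 51.5%. Without Pnisr, Luc7l3 and Rbm25, the 23 other peaks had a median difference of 5.27 points. Within coding sequence alone the difference was 4.38 points over 30 peaks, 21 of them higher under the peak (all genes 1.41). For the 8 peaks wholly inside 1 exon of the chosen transcript, which belong to 8 different genes, it was 0.69 points, with 5 higher (62.5%), below the 2.02 points and 67.3% of such peaks in all protein-coding genes.

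The 3 hexamers marked by capitals above, counted on the transcribed strand with overlaps, occurred 8.59 times per kb of exon under the peaks and 3.69 times outside them. In all protein-coding genes the rates were 4.65 and 2.79 per kb. Their reverse complements (TCTTCT with its shifted forms, TTCTTC on the one side and CTTCTT on the other) occurred 1.26 and 1.28 times per kb in the splicing factor genes, under peaks and outside. In the 8 peaks wholly inside 1 exon the order turned, with 2.39 matches per kb under the peaks and 3.07 outside, while such peaks in all protein-coding genes had 3.81 and 2.47. At least 1 match was found in 29 of 36 exonic peaks (80.6%), against 71.0% of exonic peaks in all protein-coding genes. Among peaks with at most 300 exonic bases the shares were 65.0% (13 of 20) and 44.99%. Prpf4b had most matches, 28 under its peak on exon 2, followed by 15 in Rbm25 exons 11 and 12, 14 in Rbm25 exon 15 and 14 in Prpf38b exon 6. All these hexamer rates were taken over coding and untranslated bases together, without the restriction to coding sequence made for purines. How far they differ by coding content was not tested. A match is a description of the letters and not a site.

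**Figure D5:**
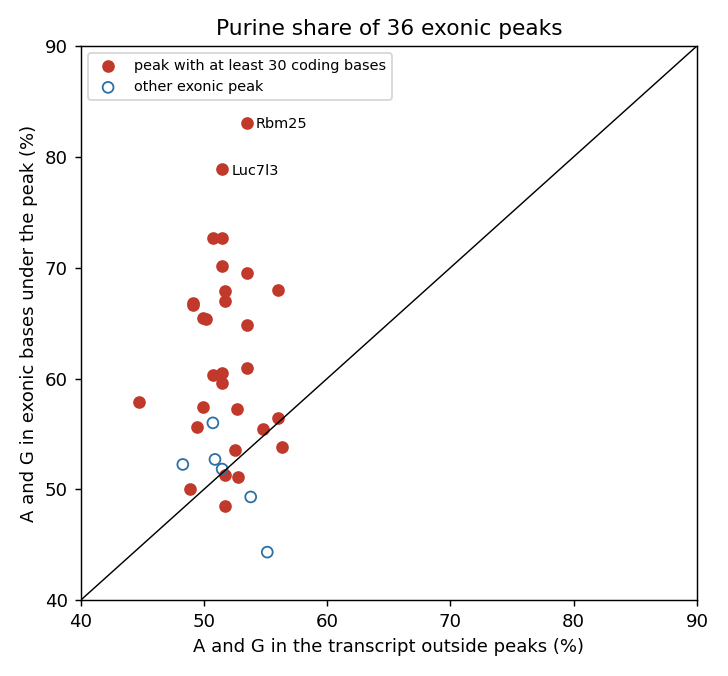
Share of A and G (%) in the exonic bases under each of 36 exonic peaks of splicing factor genes, against the share in the same transcript outside all peaks; filled points have at least 30 coding bases under the peak, and the line marks equal shares. The points of 30 peaks lie above the line, with Rbm25 at 83.1% and Luc7l3 at 78.9% highest.

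The 4 genes with most peaks held them almost entirely in introns. Rsrc1, which encodes an arginine- and serine-rich coiled-coil protein (chromosome 3, plus strand, 377 kb), held 10 peaks, all intronic and 7.197 to 38.1 kb from the nearest exon. Of these, 5 lay within 7.67 kb near the end of the gene (chr3:67327220-67334887), 2.03% of its length. Srrm4, a factor for neuronal microexons (chromosome 5, minus strand, 153 kb), held 8 peaks with midpoints in introns, 0.553 to 46.7 kb from an exon. Of these, 4 lay in 17.9 kb at the start of the gene, and the first, chr5:116589799-116591764, also covered 431 exon bases. Rbm20, known for splicing of titin in heart (chromosome 19, plus strand, 190 kb), held 7 intronic peaks 2.03 to 55.8 kb from an exon. Rbm41 (chromosome X, minus strand, 109 kb) held 7 intronic peaks and 1 on exon 6 of 8. These 4 genes held 33 of the 89 peaks (37.1%) and 1 of the 36 exonic ones. In the other genes 35 of 56 peaks were exonic (62.5%, interval 49.4 to 74.0). The 4 genes were set apart by their number of peaks, so a higher share in the rest follows in part from the split. All 4 are above 100 kb, and at 100 to 300 kb the exon share is low in all protein-coding genes too (8.44%). No share of all protein-coding genes under the same split was taken. Over all 53 intronic peaks the median distance to an exon was 4.57 kb, against 5.50 kb in all protein-coding genes. Within 1 kb of an exon lay 22.6%, against 17.3%, and beyond 10 kb 35.8%, against 36.8%.

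The peak names carry running numbers that rise along each chromosome and strand. If each number stands for 1 call, the list keeps only some of them. Between the first and last peak, Rbm25 had 4 of 4 numbers in the list, Prpf38b and Prpf4b 2 of 2, Pnisr 6 of 7 (85.7%) and Luc7l3 4 of 7 (57.1%). Rsrc1 had 10 of 108 (9.26%), Rbm20 7 of 41 (17.1%), Srrm4 8 of 38 (21.1%) and Rbm41 8 of 22 (36.4%). Rbm27, with 2 exonic peaks of 4, had 4 of 21 (19.0%), Rbm6, with 2 exonic peaks far apart, 2 of 43 (4.65%) and Snrnp40, with 1 exonic peak of 3, 3 of 3. The genes with at least 50% exonic peaks ranged from 4.65% to 100% and the others from 9.26% to 100%, so these groups overlapped. Of all protein-coding genes with at least 2 peaks, 16.4% (498) were at 100%. The median was 40% over the 15 splicing factor genes with at least 2 peaks, against 28.6% over 3030 protein-coding genes.

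The snRNP genes held 8 peaks, against 7.71 at the rate of all protein-coding genes of their lengths. Snrpd1, a protein of the Sm ring, held 3 (2 intronic and 1 in the 3' untranslated region) and Snrnp40, a U5 protein, held 3, of which the exonic one lies in a non-coding isoform. Snrpn, the imprinted Sm protein gene annotated over 158 kb, had 1 intronic peak. Sf3a3 and Sf3b2 of the U2 snRNP had 1 intronic peak each, with midpoints 0.242 and 0.253 kb from an exon. The Sf3a3 peak, of 1381 bases, also covered 400 exon bases. Rbm26, a relative of Rbm27, held 2 intronic peaks, with midpoints 0.322 and 0.564 kb from an exon, the first of which also covered 160 exon bases. The SR genes with a peak were Srsf10, with a peak of 1002 bases over the start of its last exon, and Srsf11, with an intronic peak 0.619 kb from an exon. Both hnRNP peaks were wide, 1374 bases in the last exon of Hnrnph2 and 2570 bases in Hnrnpl. How reads of near-identical copies were placed is not given in the sources used here, so the peaks of Hnrnph2, Rbm12b2 and Rbm4b, which have close relatives, are uncertain. The peaks of Srsf11 and Rbm12 and 1 of the peaks of Rbm26 also lay in another gene on the same strand.

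Splicing genes outside these name families held peaks somewhat more often, in a list drawn up with earlier results of these data known. The shares and intervals of this list and its classes are therefore descriptive only. Of its 106 genes, 41 held a peak (38.7%, interval 30.0 to 48.2), against 31.6 at the rate of all genes of their lengths. In exons lay 40 of 124 peaks (32.3%, against 19.9% in all protein-coding genes of like length). A class of SR-like regulators, kinases and associated factors had 15 of 31 (9.09 at the rate of genes of like length), with 21 of 33 peaks exonic (63.6%, 46.6 to 77.8, against 29.4%). Regulators of alternative splicing had 16 of 33 (12.9), with 4 of 56 exonic (7.14%, 2.81 to 17.0, against 11.6%). Other spliceosome proteins had 10 of 42 (9.64), with 15 of 35 exonic (42.9%, 28.0 to 59.1, against 24.4%). Ppig, a cyclophilin with an SR-like tail, held 6 peaks, 4 of them coding. Celf2 held 12, Cwc27 11, Mbnl2 10 and Khdrbs3 6, and these had 0, 1, 1 and 0 exonic.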

How the data were processed

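RNA was recovered with SAFB1, FLAG or control IgG antibodies from 9 samples, grouped by their titles. Per the submitters' processing notes the build was mm10, and STAR, Subread and featureCounts were used. For the peak caller, pooling and filters, nothing was given in the sources used here. The authors deposited 1 list with start, end, strand and a score of 500 in every peak, and the score was not used. Starts were taken as counted from 0. Genes and transcripts came from GENCODE M21 (GRCm38, the assembly of mm10), with exons of all transcripts. Counting was checked on simulated peaks. Transcript sequence was read for protein-coding transcripts first, then by most peak bases. Intervals are 95% Wilson or exact Poisson. Python 3.11.15 with numpy 2.4.6, pandas 2.3.3, scipy 1.17.1 and matplotlib 3.10.9 were used. The members and lists were chosen with earlier results of these data known. Genes named were those with at least 2 peaks, the first gene and the longest gene without a peak of each subfamily, and 5 of the other splicing genes. Of the genes with at least 2 peaks 1 is counted but not reported here. Other genes named were chosen after their values were seen, as were the printed stretches. Alternatives placed peaks by any overlap, kept wide peaks or peaks in 1 gene, left out members, or changed the exons used.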

Additional observations from a re-analysis of the deposited data

How the results depend on the processing

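No paired analysis was possible because the list holds no value per library. The count of 35 genes with a peak became 22 of 86 without the Rbm genes and 15 of 125 when at least 2 peaks were required. The first is 25.6%, against 26.2% of all protein-coding genes and 22.5% at the rate of genes of like length. The second is 12.0%, against 13.8% of all protein-coding genes. Under the other settings, which include leaving out the gene with most peaks, the count lay between 24 (wide peaks only) and 35. With wide peaks only, 24 of 125 is a share slightly below the 20.0% of all protein-coding genes under that setting. The density of 24.0 peaks per Mb became 9.16 when peaks narrower than the median were left out, below the 9.92 of all protein-coding genes, and lay between 21.02 and 24.0 under the other settings. The exon share of 40.4% ranged from 35.3% (wide peaks, 34 of them) to 50.4% (mean over genes, each gene once, a setting chosen after seeing the data), and in all protein-coding genes from 11.9% to 25.0%. Without the gene with most peaks of each subfamily, 3 of 11 subfamilies, in place of 7, had a density above that of all genes. The cause of these changes was not tested, except that fewer genes or peaks enter by construction. Depth is unknown, and a small subfamily can move by 1 gene.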

Other observations

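Some of the coding peaks had a counterpart on the other strand. A peak on the opposite strand overlapped 8 of the 36 exonic peaks of splicing factor genes (22.2%, 95% Wilson interval 11.7 to 38.1), against 8.57% of 2883 exonic peaks in all protein-coding genes, and 3 of the 53 intronic ones (5.66%, 1.94 to 15.4), against 3.90%. In Luc7l3 the minus-strand peak chr11:94295886-94296129 lay opposite a plus-strand peak at chr11:94295884-94296114, and chr11:94297722-94297935 opposite chr11:94297719-94297848, so that each pair began within 3 bases. In Rbm6 the opposite peak covered 96.9% of the peak on exon 3, in Pnisr 91.5% of the peak on exon 11 and in Prpf38b 72.2% of the peak on exon 6. No same-strand gene is annotated at these opposite peaks. The source of these opposite peaks was not tested. Leaving out all peaks that have such a counterpart was a setting chosen after seeing the data. Of the 78 peaks that remained, 35.9% were exonic, against 14.03% in all protein-coding genes. They lay in 30 of 125 genes. The share of all protein-coding genes with a peak under this setting is not given, so this count cannot be read against it.

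In all, 31 peaks lay antisense to 20 of the splicing factor genes (16%, interval 10.6 to 23.4, against 12.5% of all protein-coding genes), 21 of them in no annotated gene of their own strand. Just past the gene ends, within 5 kb on the same strand, lay 23 peaks of 19 genes (15.2%, interval 9.95 to 22.5, against 10.5% of all protein-coding genes), 21 of them in no annotated gene. Of these 19 genes 12 had no peak inside the gene (63.2%, against 52.2% in all protein-coding genes, and 90 of the 125 splicing factor genes had none), among them Hnrnpd, Hnrnpm, Hnrnpll, Hnrnph3, Sf3b4 and Sf3b6. The nearest such peaks were 0.976 kb past the end of Snrnp40, 1.09 kb past Sf3b4 and 1.11 kb past Snrnp25.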
